A study of Mus musculus with 29 samples.

Results

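The comparison concerns 5 wild type (WT) mice that received a photothrombotic stroke and then tacrolimus from day 7 (WT-Tacr delayed), set against 4 WT mice labelled as controls, without drug, which are called non-stroked below. These 9 brain samples were chosen by their genotype and treatment labels out of 29 in the series, and all 9 were used. Per the study's methods, the mice were C57BL/6 animals of both sexes, 3 months of age, and the stroke was made by light through the skull over the right sensorimotor cortex after injection of the dye Rose Bengal. Tacrolimus, which binds the protein FKBP12 and so blocks the phosphatase calcineurin, came from an osmotic pump placed under the skin. Tissue around the stroke was taken 21 days after injury. The methods also name tissue from the site opposite the lesion, whereas the study's results compare stroked mice with naïve or non-stroked mice. The labels say control only. The comparison asks what the injured cortex looked like under suppression that began after the acute phase. No delayed tacrolimus mice without stroke were among the samples used here.

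Stroke, drug, cohort and sex differed together between these groups. The titles of all 5 WT-Tacr delayed samples begin with TF and those of all 4 non-stroked samples begin with Imm2, so stroke, drug and cohort cannot be told apart within the 9 mice. The cohorts also differed in genes of chromosome Y. Ddx3y, a Y-linked RNA helicase, was at 52.7, 49.7, 49.2 and 51.7 CPM (read counts per 1000000 reads of the library) in the non-stroked mice and had no read in any delayed mouse. Eif2s3y, Kdm5d and Uty, the other Y-linked genes examined, behaved alike, and no TF library had more than 1 read of any of the 4. All Imm2 libraries of the WT groups, stroked and acute mice included, carried reads of Ddx3y. Sex, as read from these genes, therefore went with cohort in the WT groups, and the 2 cannot be told apart. To describe the difference between cohorts, sex included, the 4 stroked WT mice without drug were used, 2 from each cohort, together with a fit that held cohort as a covariate. That covariate rests on the 4 stroked WT and 3 acute tacrolimus (WT-Tacr acute) mice, the only groups with both cohorts. Of the acute mice 2 were of TF and 1 of Imm2. They differed widely from each other, and mouse 1_5 of TF lay near the non-stroked mice in many lists, as described below. How far this moved the cohort-adjusted values was not tested.

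Library totals ran from 17789044 to 28968103 counts in WT-Tacr delayed mice and from 38298061 to 40440384 in non-stroked mice. All 17 markers of cortical neurons, interneurons, astrocytes, oligodendrocytes, microglia and endothelium were present, the lowest being Tmem119 at 11.5 CPM in 1 non-stroked mouse. Genes of neighbouring tissue were present too. Drd1, the D1 dopamine receptor of the striatum, stood at 25.1, 18.6, 12.7 and 24.5 CPM in the 4 non-stroked and at 75.2, 36.3, 62, 88.1 and 62 CPM in the 5 delayed mice. Of 13 striatal genes, 11 rose, with a median log2 fold change of 1.72, and between the cohorts of stroked WT mice their median difference, TF minus Imm2, was 1.43 on the log2 scale. With the cohort covariate none of the 13 passed. Ttr, the transthyretin made by choroid plexus, ranged from 0.871 to 729.5 CPM without stroke and from 5.39 to 776 CPM in delayed mice. How much of the results below came with this tissue was not tested.

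**Figure D1:**
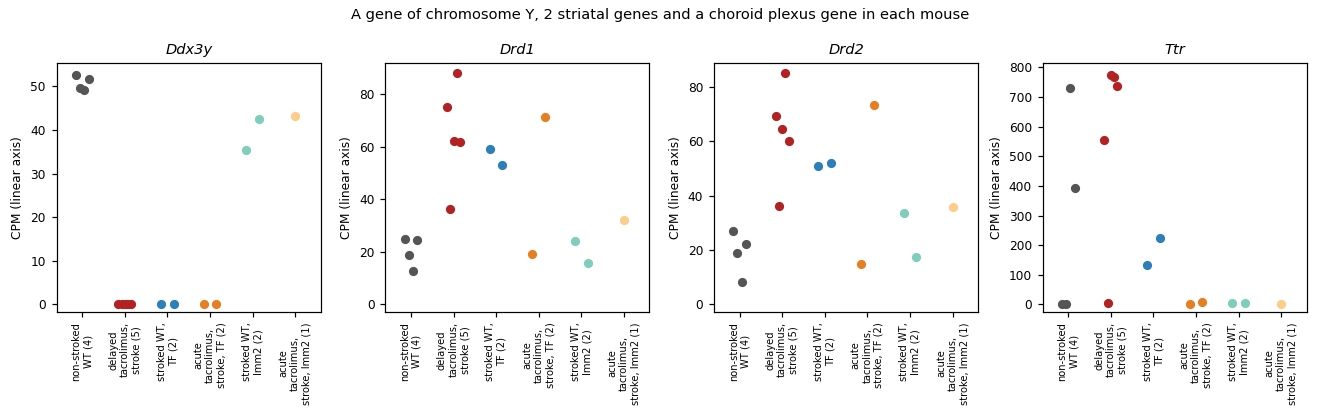
CPM on a linear axis of Ddx3y (chromosome Y), Drd1 and Drd2 (striatum) and Ttr (choroid plexus); each point is 1 mouse, by group and cohort. Ddx3y is at 0 in every TF mouse, Drd1 is higher in delayed mice (36.3 to 88.1 CPM) than in non-stroked mice (12.7 to 25.1 CPM), and Ttr varies within groups.

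After a cortical infarct, microglia and infiltrating macrophages clear dead cells and myelin, astrocytes turn reactive and form a border, and fibroblasts deposit a collagen-rich core. T cells enter over the following weeks, and their activation needs calcineurin, which dephosphorylates NFAT so that it can enter the nucleus. Neurons use the same phosphatase at synapses, where it is abundant.

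Of 17031 genes tested with edgeR's quasi-likelihood test, 4696 rose (27.6%) and 4697 fell (27.6%) at an adjusted p below 0.05. More than doubled were 1955 genes (11.5%) and more than halved 681 (4.0%). The median over all genes was 0.00358 on the log2 scale, so list medians below can be read against a value near 0. With cohort as a covariate 972 genes rose (5.71%) and 561 fell (3.29%), 934 and 433 of them in the same direction as without it. The losses were uneven, because 679 of the 1955 doubled genes stayed doubled and 12 of the 681 halved genes stayed halved. Values without the covariate are given first below. Where a value with the covariate is given, it follows as the cohort-adjusted one. A gene given without one may not pass with the covariate, and the counts of its list show how many members did. Values of the groups did not overlap at 9191 genes (54.0%), and 4086 genes (24.0%) rose and 4221 (24.8%) fell without overlap, the shares to set beside the lists below. In bulk tissue more cells of a type and more RNA per cell cannot be told apart.

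**Figure D2:**
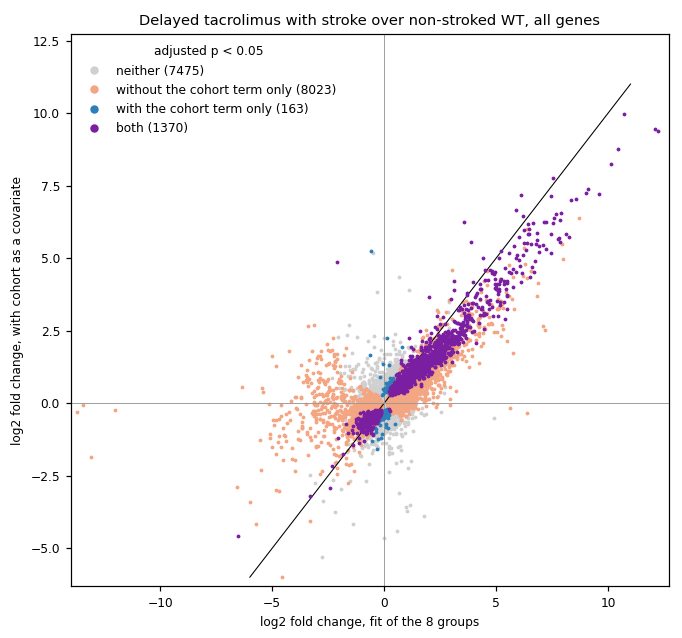
Log2 fold change of each of 17031 genes (WT-Tacr delayed over non-stroked WT) without (x axis) and with (y axis) cohort as a covariate; each point is a gene, coloured by which fit gave an adjusted p below 0.05, and the line marks equal values. Among genes past the threshold in the same direction in both fits, 934 were raised and 433 lowered.

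The 12 genes with the highest fold change among those that did not overlap between groups came mostly from phagocytes, the matrix and the acute phase. Mmp3 (stromelysin, a matrix protease) had no read in any non-stroked mouse and stood at 18, 19.2, 19.2, 9.51 and 24.9 CPM in the delayed mice. It was at least 221-fold higher, taking 3 counts per library as the floor (adjusted p = 3.76e-05, edgeR). By the same floor Cd300lb, an activating receptor of myeloid cells, was at least 51.8-fold higher, and the apolipoprotein gene Apoc4 at least 35.8-fold higher. Saa3, an acute-phase serum amyloid, was at least 24.1-fold higher and Mcoln2, a lysosomal cation channel, at least 15-fold higher.

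Cd5l, a secreted macrophage protein, was counted once in the 4 non-stroked libraries together and reached 40.6, 39.3, 79.2, 22.3 and 49.6 CPM in delayed mice. Its ratio to the pooled controls was 6746 (95% counting interval 1211 to 266440.5). Atp6v0d2, a proton pump subunit of macrophages and osteoclasts, had a ratio of 1793 (95% counting interval 496 to 14805), and the macrophage elastase Mmp12 one of 2017 (95% counting interval 690.1 to 9780.0). All 3 remained past the threshold with the cohort covariate (adjusted p = 0.00597, 0.00435 and 0.00308). Mmp12 ranged from 9.28 to 119 CPM in delayed mice, with the highest value in mouse 5_5. Ms4a15 had a ratio of 658 (95% counting interval 118 to 26006), but 1 delayed mouse was at 0.121 CPM and the cohort-adjusted p was 0.229. Lcn2, the iron-trapping lipocalin of reactive astrocytes and neutrophils, stood at 0.0285, 0.0272, 0.292 and 0.22 CPM in controls and 69.5, 90.9, 63.5, 80.8 and 97.4 CPM in delayed mice. The groups were far apart, and the fitted fold change was 545 (log2 9.09 ± 1.08 SE, adjusted p = 8.13e-07).

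Homeostatic microglial genes were higher, not lower. Of 12 measured, 9 rose and none fell, with a median log2 fold change of 1.12, and 8 rose with the cohort covariate (median 0.60). Tmem119, a membrane protein that marks resident microglia, was at 13.8, 11.5, 15.1 and 15.6 CPM without stroke and at 35.3, 37.7, 34, 33.8 and 40.8 CPM in delayed mice. The groups did not overlap (log2 1.38 ± 0.11, adjusted p = 8.69e-09). Csf1r, the receptor on which microglia depend for survival, rose by 1.31 on the log2 scale, from between 75.6 and 87.7 CPM to between 185 and 217 CPM. Cx3cr1, the fractalkine receptor, rose by 1.09. P2ry12, the ADP receptor of resting microglia, was the exception among the defining genes, at 27 to 38.5 CPM without stroke and 25.9 to 33.8 CPM in delayed mice (log2 -0.16, adjusted p = 0.285). Aif1, which encodes the stained microglial protein Iba1, rose from between 2.05 and 3.3 CPM to between 9.46 and 15.3 CPM (log2 2.3, cohort-adjusted 1.63, adjusted p = 5.14e-07 and 0.00531).

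Every one of 22 genes of disease-associated microglia, the state described around plaques and lesions, rose without overlap (median 2.89), against 24.0% of all genes tested, and 20 rose with the cohort covariate (median 2.29). Trem2, the lipid-sensing receptor of this state, was at 9.08, 7.56, 9.44 and 8.85 CPM in controls and 52.7, 64.9, 84, 56.2 and 79.2 CPM in delayed mice (log2 2.95 ± 0.30, adjusted p = 2.53e-07). Its adaptor Tyrobp rose by 3.6 on the same scale. Clec7a, the beta-glucan receptor, went from between 0.136 and 0.212 CPM to between 22 and 55.6 CPM and the integrin gene Itgax from between 0.114 and 0.357 CPM to between 15.1 and 43.7 CPM. Spp1, the secreted phosphoprotein osteopontin, stood at 199.5, 239, 262, 167 and 392 CPM in delayed mice against 3.65 to 7.78 CPM in controls. Gpnmb, a glycoprotein of lipid-laden phagocytes, was at 3.44, 2.31, 4.69 and 3.24 CPM without stroke and 204, 306, 432, 173 and 538 CPM with it, a log2 difference of 6.59 ± 0.89. Its lowest and highest delayed mice, 4_3 and 5_5, differed severalfold, and the lowest lay far above every control. In the stroked WT mice of cohort Imm2, which share the cohort of the controls, the median of the list over the same controls was 2.13.

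Lipid, lysosome and iron genes rose with the phagocyte genes. Among genes of lipid handling by phagocytes 20 of 21 rose and 1 fell (median 2.4), 15 of them with the covariate. Apoe, the main lipid carrier of the brain, was at 1016, 948, 1219 and 1014 CPM in controls and 3359, 3838, 4739, 3589 and 4555 CPM in delayed mice (log2 1.94, adjusted p = 8.80e-07). Abca1, the cholesterol exporter, rose by 2.21, and Plin2, which coats lipid droplets, by 3.27. Fabp4, a fatty acid binding protein of macrophages, rose from at most 0.110 CPM to 2.67 to 9.92 CPM. Of 30 lysosomal genes 24 rose and 2 fell (median 1.18; cohort-adjusted 19 and 1). Ctsd, the protease cathepsin D, rose from between 287 and 344 CPM to between 1132 and 1621 CPM, and the membrane protein gene Lamp1 by a log2 difference of 0.52. Heme and iron genes rose in 12 of 15 and fell in none (cohort-adjusted 8). Hmox1, which degrades heme, stood at 3.7, 3.24, 4.4 and 5.28 CPM in controls and 17.9, 20.3, 25.9, 17.9 and 27.5 CPM in delayed mice (log2 2.4, adjusted p = 7.71e-07). Of the ferritin subunits, the light chain gene Ftl1 rose by 2.36, whereas the heavy chain gene Fth1 did not pass, at 1286 to 1926 and 1268 to 1407 CPM (log2 -0.31, adjusted p = 0.158).

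Genes of macrophages of the meninges and vessel walls and of blood-borne myeloid cells rose too, with fewer past the threshold once cohort was included. Border-associated macrophage genes rose in 11 of 12 (cohort-adjusted 8). Mrc1, the mannose receptor, rose by 2.12 and Ms4a7 by 5.77, while Lyve1, a hyaluronan receptor, rose by 1.06 and did not pass with the covariate (adjusted p = 0.438). Of 16 monocyte and neutrophil genes listed 12 were tested. Of these 9 rose, and 2 with the covariate, among them Ly6c2 of inflammatory monocytes (log2 3.96, cohort-adjusted 4.17). The calprotectin subunits of neutrophils, S100a8 and S100a9, stood at 0.634 to 2.63 and 1.68 to 3.67 CPM in delayed mice. S100a9 was also higher in TF than in Imm2 mice of the stroked WT group, by 2.65 on the log2 scale (adjusted p = 0.0347). Ccr2, the receptor that draws monocytes into tissue, rose by 3.34, and its cohort difference was 1.94 (adjusted p = 0.0433).

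**Figure D3:**
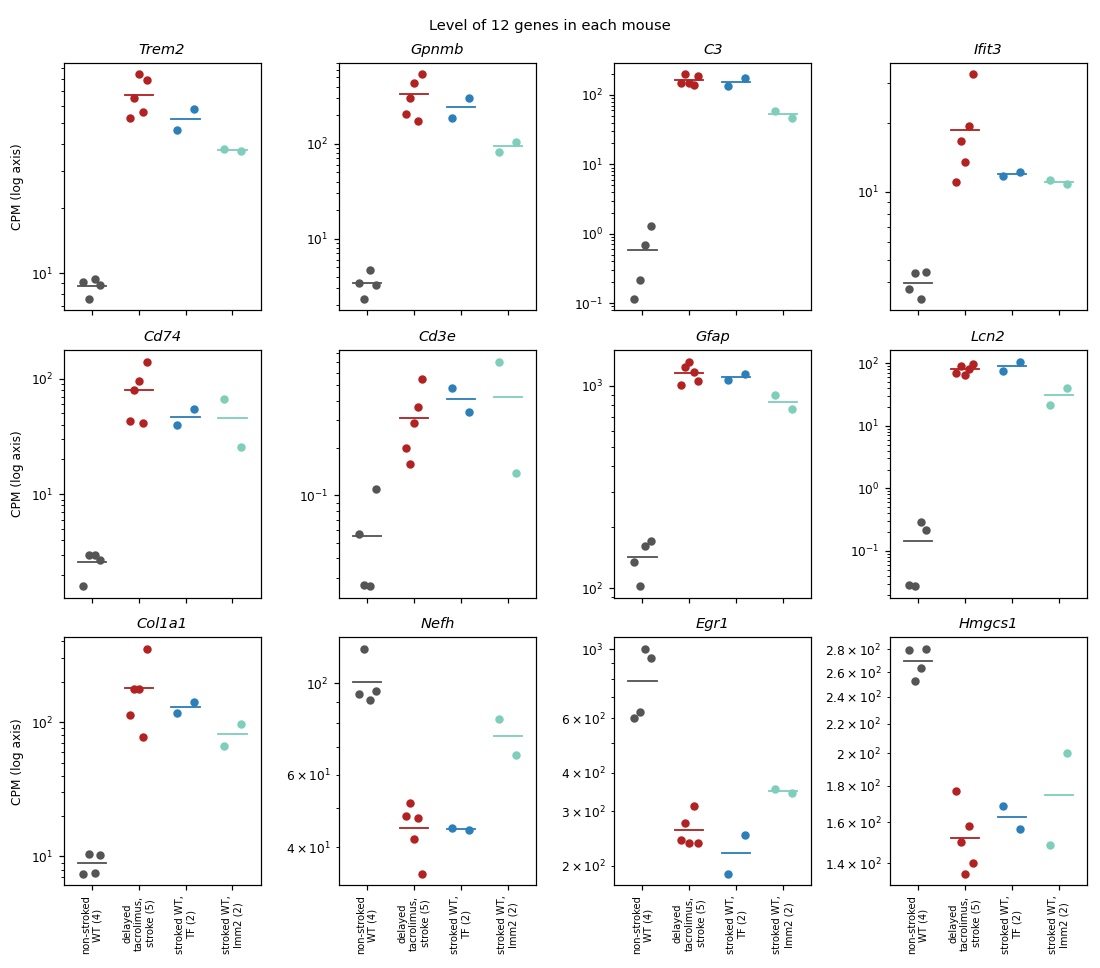
CPM (log axis) of 12 genes in the 4 non-stroked WT, 5 WT-Tacr delayed and 4 stroked WT mice, the last split by cohort; points are mice and lines are group means. Trem2, Gpnmb, C3, Ifit3, Cd74, Cd3e, Gfap, Lcn2 and Col1a1 are higher in all 5 delayed mice than in any non-stroked mouse, and Nefh, Egr1 and Hmgcs1 are lower.

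Complement opsonises debris and synapses for uptake by phagocytes. Of 16 complement genes 15 rose (median 2.8), 13 with the cohort covariate. C3, the central component, stood at 0.114, 0.218, 0.689 and 1.29 CPM without stroke and at 148, 198, 149, 139.5 and 188 CPM in delayed mice (log2 8.13 ± 1.11, adjusted p = 3.14e-06). The delayed mice lay close together and far above every control. C1qa and C1qb, chains of the recognition molecule, rose by 2.42 and 2.75, and C4b by 4.35.

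Pattern and antibody receptors rose in 14 of 15 genes, and the same number passed with the covariate. Fcgr1, the high-affinity IgG receptor, went from between 1.79 and 2.31 CPM to between 8.53 and 16.2 CPM, Tlr2 by 3.21 on the log2 scale and the co-receptor Cd14 by 2.72. Tlr3, which senses double-stranded RNA, was the member that did not pass (log2 0.14, adjusted p = 0.347).

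Of 20 chemokine ligands listed 19 were tested, of which 17 rose and 1 fell (cohort-adjusted 13 and 0). Their median of fitted log2 fold changes, 3.89, was the highest of the lists, a rank that depended on the scale. On the scale of log2(CPM + 0.5), which damps values near 0, their medians in delayed mice ran from 1.05 to 1.95. The disease-associated microglia list ran from 2.08 to 3.03 on that scale. Ccl8, a monocyte attractant, had 0, 0, 0 and 0.0275 CPM in controls and 1.69, 4.13, 3.93, 1.86 and 8.63 CPM in delayed mice, a ratio of 591 (95% counting interval 106 to 23332). Ccl4 and Ccl5, which attract T cells and monocytes, rose by 4.52 and 4.73. Cxcl10, an interferon-induced T cell attractant, was at 2.01, 3.24, 3.1, 3.62 and 7.89 CPM in delayed mice, of which 5_5 was highest, against at most 0.137 CPM in controls. The related Cxcl9 ranged more widely, from 0.201 to 3.77 CPM (log2 5.9, adjusted p = 1.08e-04). The member that fell was Cx3cl1, the neuronal ligand of the microglial receptor CX3CR1, from between 937 and 1043 CPM to between 650.3 and 784 CPM (log2 -0.44, cohort-adjusted -0.32 at adjusted p = 0.134). Of 24 genes of cytokines and their receptors listed 22 were tested, of which 20 rose and none fell (cohort-adjusted 14). In both lists the share that rose is partly set by the count filter, as described for T cell genes below. Il4ra, the interleukin-4 receptor chain, rose by 1.41. The inflammatory cytokine genes Il1b and Tnf rose too and stood at 0.787 to 1.19 and 0.226 to 0.704 CPM in delayed mice, and Tnf did not pass with the covariate (adjusted p = 0.0739).

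Interferon-stimulated genes encode antiviral effectors and the factors that transcribe them. Of 22, 21 rose (median 2.71), and 14 rose with the covariate (median 2.11). Promoters of this list are shown because most members moved together and a known element, the interferon-stimulated response element, is described for such genes. It was searched as GAAA, any 2 bases and GAAA on both strands within 250 bases before the RefSeq start. Of the 22 members 14 had an entry in the RefSeq table of GRCm38.p6, and 8 of these (57.1%) held a match, against 393 of 12275 tested genes with an entry (3.2%). A match is a description of letters and not of binding. The following windows lie before the start and carry the matches in capitals, where TTTC, any 2 bases and TTTC is the element on the opposite strand and matches in Isg15 and Bst2 overlap.
Ifit1 (chr19:34640755-34640843, + strand): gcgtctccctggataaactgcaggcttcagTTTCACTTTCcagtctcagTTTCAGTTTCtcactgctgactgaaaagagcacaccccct
Ifit3 (chr19:34583343-34583446, + strand): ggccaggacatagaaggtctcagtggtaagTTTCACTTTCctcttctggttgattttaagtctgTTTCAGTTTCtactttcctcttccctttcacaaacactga
Isg15 (chr4:156200845-156200926, - strand): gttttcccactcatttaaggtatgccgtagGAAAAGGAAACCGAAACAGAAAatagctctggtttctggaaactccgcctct
Bst2 (chr8:71537557-71537632, - strand): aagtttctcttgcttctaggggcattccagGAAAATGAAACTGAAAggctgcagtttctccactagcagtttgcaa
Stat2 (chr10:128270248-128270315, + strand): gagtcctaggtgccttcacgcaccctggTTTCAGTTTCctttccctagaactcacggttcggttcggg

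Ifit3, an RNA-binding antiviral protein with 2 matches in its window, was at 3.73, 4.38, 3.37 and 4.42 CPM in controls and 11.1, 16.8, 13.5, 19.5 and 32.8 CPM in delayed mice (log2 2.23 ± 0.26, adjusted p = 6.09e-07, cohort-adjusted p = 0.00323). Its neighbour on the chromosome, Ifit1, rose by 2.55 but had a cohort-adjusted p of 0.0627. Isg15, a ubiquitin-like modifier, rose from between 0.272 and 0.66 CPM to between 3.19 and 12.8 CPM, with a cohort difference of 1.64 in stroked WT mice (adjusted p = 0.0997). Bst2, which tethers virus particles to the cell, rose by 3.64, and Ifitm3, a block to virus entry, by 3.07. Irf7, the factor that amplifies the response, rose by 2.6 and Oasl2 by 2.81. Stat2, a transcription factor of the receptor pathway whose window also holds a match, did not pass, at 30.5 to 37.7 and 29.2 to 48.8 CPM (log2 0.07, adjusted p = 0.599). Mice 3_4, 4_3 and 5_5 were the highest of the 5 for this list, with median differences from the controls of 2.30, 2.31 and 3.14 on the scale of log2(CPM + 0.5), while 3_3 and 3_5 stood at 1.38 and 1.68.

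Antigen presentation rose in both classes. Class I genes rose in 11 of 12 (cohort-adjusted 8), and B2m, the light chain of the complex, stood at 94.3, 86.9, 101 and 96.6 CPM in controls and 165, 210.5, 246, 182 and 333 CPM in delayed mice (log2 1.26, adjusted p = 3.46e-05). H2-K1 rose by 2.54, a value that is uncertain because class I genes are near copies of each other and reads may be split between them. Class II genes, which present extracellular antigen to CD4+ T cells, rose in all 11 members measured, without overlap, as 24.0% of all genes did (median 3.25; cohort-adjusted 9 rising, median 2.44). Cd74, the invariant chain, was at 1.59, 2.99, 3.0 and 2.72 CPM without stroke and at 43.2, 80.1, 95.1, 41.2 and 141 CPM in delayed mice, an increase of 4.95 ± 0.66 on the log2 scale (adjusted p = 2.59e-06). Mice 4_3 and 3_3 were the lowest of the delayed group and 5_5 the highest, all far above the controls. H2-Aa rose by 5.87 and the co-stimulatory ligand Cd86 by 2.23. Ciita, the master regulator of the class, reached 0.769 to 2.48 CPM (log2 3.58, cohort-adjusted p = 0.0916).

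Genes of T cells, on which tacrolimus acts, had few reads and were above the controls. Of 24 listed, 17 were among the genes tested. Of these 14 rose and none fell (median 1.76), and 4 rose with the cohort covariate (median 1.85). A gene nearly absent from the controls was tested only through groups with more counts, so the share that rose is partly set by the filter. The same holds for the chemokine, cytokine, monocyte, neutrophil and B cell lists. Cd3e, a chain of the T cell receptor complex, stood at 0.057, 0.0272, 0.0265 and 0.11 CPM in controls and at 0.201, 0.158, 0.29, 0.362 and 0.546 CPM in delayed mice. The groups did not overlap, and the adjusted p of 0.00318 became 0.0562 with the covariate. Cd3g had a single read in the 4 controls together and 0.201, 0.661, 0.372, 0.136 and 0.595 CPM in delayed mice (adjusted p = 5.88e-04, cohort-adjusted 0.0371). Cd8a, of cytotoxic T cells, rose by 3.12 and passed with the covariate as well (adjusted p = 0.0175). Cd4 rose by 1.76, from between 3.39 and 9.62 CPM to between 14.5 and 30.3 CPM, and is also made by myeloid cells. Foxp3, the factor of regulatory T cells, was at 0.121 to 0.496 CPM in delayed and 0.275 to 0.37 CPM in non-stroked mice (log2 -0.19, adjusted p = 0.717). Il2, the NFAT target that calcineurin blockade is best known to reduce, did not reach the count minimum for testing.

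Of 10 B cell genes listed 7 were tested, of which 3 rose and 1 fell (cohort-adjusted 2 and 0). Igkc, the constant part of the kappa light chain made in bulk by plasma cells, was at 0.142, 0.0544, 0.133 and 0.22 CPM in controls and 8.45, 5.2, 3.31, 4.57 and 27.2 CPM in delayed mice. All 5 were higher than any control, 5_5 most of all, with a log2 difference of 6.11 ± 0.89 (adjusted p = 1.44e-05, cohort-adjusted 7.17, adjusted p = 0.00188). Jchain, which joins secreted antibody chains, rose by 1.99. Ighm did not pass (log2 -0.17, adjusted p = 0.578). The member that fell, Pax5, rests on 1 control mouse at 3.59 CPM, and without that mouse its log2 value was 0.10.

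In the list of 21 calcineurin, NFAT and FKBP genes 4 rose and 10 fell (median -0.16), against 1 and 2 with the covariate (median 0.03). Ppp3ca, the main catalytic subunit of calcineurin in neurons, was at 1639, 1319, 1556 and 1541 CPM in controls and 1283, 924, 1169, 1086 and 940.5 CPM in delayed mice. It fell by 0.49 on the log2 scale (adjusted p = 0.00116) and did not pass with the covariate (adjusted p = 0.187). Ppp3cc fell by 0.44 and the regulatory subunit Ppp3r1 by 0.24, and Ppp3cb did not pass (log2 -0.16, adjusted p = 0.0516). With the covariate it was Ppp3cb and Ppp3r1 that fell, by 0.33 and 0.45. Fkbp1a, which encodes the drug's binding partner FKBP12, stood at 522, 441, 543 and 548 CPM in controls and 397, 309.6, 347, 364 and 337 CPM in delayed mice (log2 -0.55, adjusted p = 0.00116). This drop was as large between cohorts of stroked WT mice without drug (-0.65, adjusted p = 0.0118), and the cohort-adjusted value was 0.0099. Rcan1, a target of NFAT and inhibitor of calcineurin, was at 47.3 to 53.2 CPM without stroke and 49.1 to 57.9 CPM in delayed mice (log2 0.08, adjusted p = 0.36). Nfatc4 rose by 1.67, and its cohort-adjusted p was 0.0842.

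Fkbp5, a paralog of the drug's partner and a classic target of the glucocorticoid receptor, rose with other glucocorticoid-responsive genes. It was at 25.7, 23.1, 26.1 and 35 CPM in controls and 51, 51, 58.2, 53.6 and 73.3 CPM in delayed mice (log2 1.06, cohort-adjusted 1.19, adjusted p = 5.78e-06 and 0.00329). Of 14 genes in that list 10 rose and 1 fell, and 8 rose with the covariate. Mt2, a metallothionein, rose by 2.65, the kinase gene Sgk1 by 1.48 and Tsc22d3, which encodes the mediator GILZ, by 1.12. Zbtb16, also induced by glucocorticoids, fell by 1.42 (cohort-adjusted -0.28, adjusted p = 0.709). Between delayed mice and stroked WT mice of the same cohort the list's median difference was 0.06, and no gene passed.

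**Figure D4:**
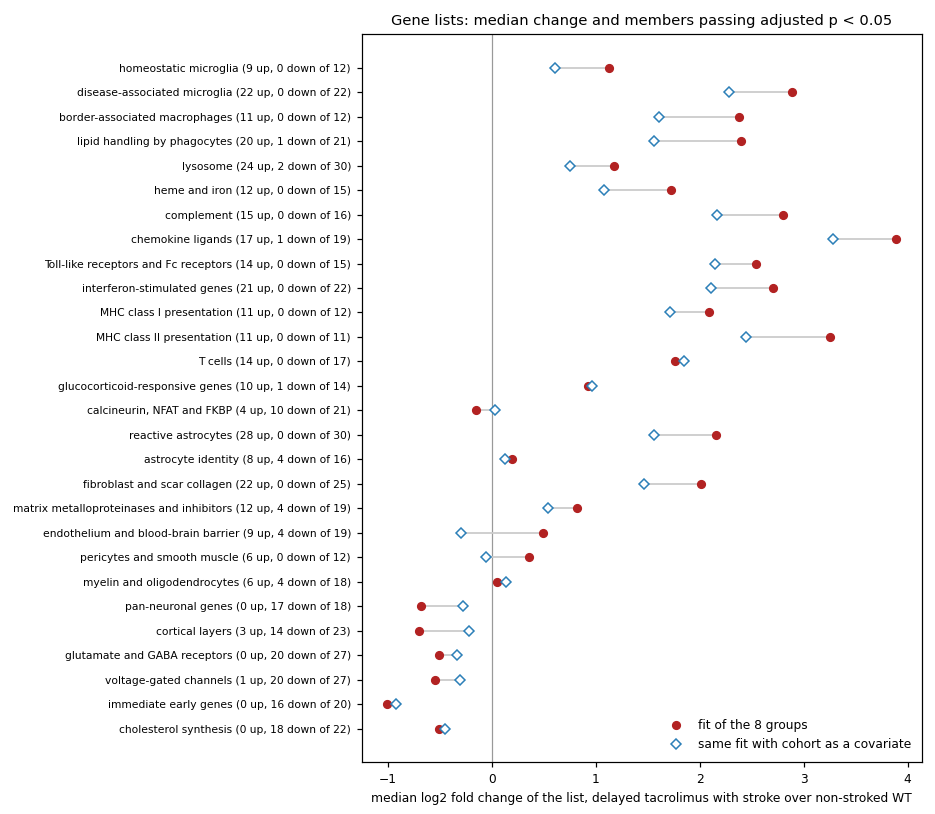
Median log2 fold change of each gene list in WT-Tacr delayed over non-stroked WT, without (red circle) and with (blue diamond) cohort as a covariate; labels count the measured members that rose and fell. Immune, phagocyte, astrocyte and scar lists lie right of 0 in both fits, most of them nearer to 0 with the covariate. The pan-neuronal median moves from -0.68 to -0.28. The endothelial (0.50 to -0.30), pericyte (0.36 to -0.06) and calcineurin (-0.16 to 0.03) medians cross 0.

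Reactive astrocyte genes rose in 28 of 30 members (median 2.16), and in 16 with the cohort covariate (median 1.56). Gfap, the intermediate filament stained as the marker of the glial scar, was at 134, 102, 162 and 172 CPM in controls and 1015, 1245, 1319.9, 1166 and 1055 CPM in delayed mice. Its log2 difference was 3.02 ± 0.33, an 8.14-fold increase (adjusted p = 3.97e-07, cohort-adjusted 2.36, adjusted p = 0.00317). Vim, another intermediate filament, rose by 3.38, the serpin gene Serpina3n by 3.46 and the asparaginase gene Aspg by 2.61. Ptgs2 did not pass, at 12.6 to 21.9 and 10.9 to 13.6 CPM.

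Of 16 genes of astrocyte identity 8 rose and 4 fell, against 1 and 0 with the covariate. Gjb6, a gap junction subunit, rose by 1.0 (cohort-adjusted p = 0.00986) and the water channel gene Aqp4 by 0.83. Sox9, the lineage factor, fell by 0.72 and Slc1a2, the main glutamate transporter, by 0.36, and neither passed with the covariate (adjusted p = 0.15 and 0.705).

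Fibroblast and scar collagen genes rose in 22 of 25 members and fell in none (median 2.01), 12 with the covariate. Col1a1, a chain of fibrillar collagen I, was at 7.46, 10.4, 7.48 and 10.3 CPM without stroke and 112, 176, 177, 77.2 and 352 CPM in delayed mice (log2 4.33 ± 0.69, adjusted p = 1.70e-05). Mouse 5_5 had the most and mouse 4_3 the least, and the latter lay well above the controls. Col3a1 rose by 5.48 and was at 106, 129, 130.1, 61.4 and 323 CPM in the delayed mice. Lum, a proteoglycan that organises collagen fibrils, rose by 4.93, and Postn, the matricellular protein periostin, by 2.45. Fn1, fibronectin, rose by 1.22, with 141, 189, 182, 152 and 374 CPM in delayed against 82 to 99.7 CPM in control mice, and did not pass with the covariate (adjusted p = 0.315). Pdgfra, shared by fibroblasts and oligodendrocyte precursors, did not pass (log2 0.06, adjusted p = 0.631). Meningeal genes, the tissue over the lesion, rose in 8 of 9, 2 of them with the covariate, and their part in the collagen values was not tested.

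Among 19 matrix metalloproteinases and their inhibitors 12 rose and 4 fell (cohort-adjusted 6 and 0). Besides Mmp3 and Mmp12, the collagenase gene Mmp13 rose by 7.52, to 3.98, 9.32, 10.7, 3.53 and 13.7 CPM from at most 0.0550 CPM. Timp1, an inhibitor of these enzymes, was at 0.256, 0.299, 0.239 and 0.357 CPM in controls and 11, 12.6, 8.65, 10.5 and 21.1 CPM in delayed mice (log2 5.45, adjusted p = 1.35e-06, cohort-adjusted p = 0.00432). Mmp9, the gelatinase tied to early barrier damage, did not pass at this late time (1.2 to 1.67 and 1.49 to 2.07 CPM, log2 0.36, adjusted p = 0.142).

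Vascular genes depended on the cohort term in direction. Of 19 endothelial and barrier genes 9 rose and 4 fell, and the median of 0.50 became -0.30 with the covariate. Pecam1, which encodes the stained endothelial protein CD31, was at 20.4, 18.6, 16.2 and 16.3 CPM in controls and 18.1, 19.6, 19.4, 19.9 and 27.2 CPM in delayed mice. The groups overlapped (log2 0.22, adjusted p = 0.26), and only mouse 5_5 stood well above the controls. Icam1, the leukocyte adhesion molecule, rose by 2.85 (cohort-adjusted 2.12), and Mfsd2a, the lipid transporter that limits transcytosis at the barrier, by 0.98 (cohort-adjusted 0.75). Cldn5, the tight junction claudin, gave -0.56 without the covariate (adjusted p = 0.054) and fell by 1.3 with it (adjusted p = 0.0175). Axin2, a target of Wnt signalling, fell by 0.86.

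Among angiogenesis genes 6 of 24 rose and 3 fell, where 27.6% of all genes tested rose and 27.6% fell. The share that rose was thus near that of all genes. With the covariate 0 rose and 4 fell, beside 5.71% and 3.29% of all genes. Vegfa, the principal endothelial growth factor, was at 82.9, 82.9, 76.3 and 90.7 CPM in controls and 58.8, 57.6, 57.6, 63.2 and 59.1 CPM in delayed mice, a level that dropped by 28.8% (log2 -0.49, adjusted p = 5.01e-05, cohort-adjusted p = 0.0105). Its receptor gene Flt1 fell by 0.52. Of 12 pericyte and smooth muscle genes 6 rose and none passed with the covariate. Anpep, which encodes the stained pericyte protein CD13, was at 5.24, 6.61, 5.65 and 6.49 CPM without stroke and 15.2, 26.6, 31.4, 16.5 and 47.3 CPM in delayed mice (log2 2.19, adjusted p = 7.25e-05, cohort-adjusted p = 0.129). Anpep is made by myeloid and meningeal cells too. Tagln and Acta2, of contractile cells, rose by 1.66 and 1.05.

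Neuronal genes were lower in the delayed mice, and the cohorts of stroked WT mice without drug differed in the same direction. Of 18 pan-neuronal genes none rose and 17 fell (median -0.68), but 2 fell with the covariate (median -0.28). Between TF and Imm2 mice of the stroked WT group, which had no drug, the median of the list differed by -0.49, and Imm2 stroked WT mice were -0.12 from the non-stroked mice. Rbfox3, which encodes NeuN, was at 569, 459, 504 and 439 CPM in controls and 264, 257, 229, 239 and 211 CPM in delayed mice. It fell by 1.04 on the log2 scale (adjusted p = 9.83e-06) and differed by -0.75 between cohorts (adjusted p = 0.0155). Syn1, of synaptic vesicles, fell by 1.52, with a cohort difference of -1.3 (adjusted p = 0.00721).

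The neurofilament genes Nefl and Nefm were the members whose fall still passed after adjustment. Nefl, the light chain, was at 404, 408, 424 and 406 CPM without stroke and 328, 309, 270.3, 278 and 238 CPM in delayed mice, without overlap (log2 -0.53, cohort-adjusted -0.52, adjusted p = 1.37e-04 and 0.0373). Nefm, the medium chain, fell by 0.99 and with the covariate by 0.68 (adjusted p = 0.0461). Nefh, the heavy chain of large axons, fell from between 91.4 and 121 CPM to between 34.6 and 51.2 CPM (log2 -1.17) and missed the threshold with the covariate (adjusted p = 0.0926).

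Slc17a7, the vesicular glutamate transporter of cortical neurons, fell by 0.86 (cohort difference -0.65, adjusted p = 0.0329). Of 23 layer genes 14 fell and 3 rose, and none passed with the covariate. Tbr1 of deep layers fell by 1.58. Crym rose by 1.26 and Bcl11b gave 0.014 (adjusted p = 0.966), and both are also genes of the striatum, whose markers were higher in these mice. Of 18 interneuron genes 7 fell and 1 rose (median -0.23), against 2 and 0 with the covariate, and their median difference between cohorts was 0.07. Gad1, a GABA-synthesising enzyme, was at 296, 305, 282 and 292 CPM in controls and 369.5, 320.3, 378, 421 and 457 CPM in delayed mice. It was higher in every delayed mouse and not past the threshold (log2 0.41, adjusted p = 0.0585). The part of striatal tissue in the Gad1 values was not tested. The member that rose was Tac1, a neuropeptide gene also abundant in striatum and named after its values were seen (log2 2.34, cohort-adjusted p = 0.476). The peptide gene Sst fell by 1.03 and Pvalb by 1.14, whereas Vip did not pass (log2 -0.08, adjusted p = 0.75).

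Of 27 glutamate and GABA receptor genes 20 fell and none rose, and 3 fell with the covariate. Grin1, the obligate NMDA receptor subunit, fell by 0.71, while the AMPA receptor gene Gria2 did not pass (log2 -0.15, adjusted p = 0.339). Voltage-gated channels fell in 20 of 27 and rose in 1, against 5 falling with the covariate. The riser was Scn4b, a sodium channel subunit abundant in striatum, from between 121 and 183 CPM to between 306 and 543 CPM (log2 1.5, cohort-adjusted p = 0.806).

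Immediate early genes, which neurons switch on with activity, fell in 16 of 20 and rose in none (median -1.01). The groups did not overlap at 8 of the 20, against 54.0% of all genes tested. Summed over the list, the controls ran from 1956 to 4079 CPM and the delayed mice from 1171 to 1478 CPM. With the covariate their median was -0.92, and 4 genes fell. Egr1 was at 599.7, 629.7, 1004 and 938 CPM without stroke and 242, 275, 236, 313 and 237 CPM in delayed mice, a level that dropped by 67.1% (adjusted p = 1.18e-06, cohort-adjusted p = 0.018). Egr3 fell by 1.39, and Bdnf, the activity-dependent neurotrophin, by 0.92 (cohort-adjusted -1.32, adjusted p = 0.00317). Arc and Fos varied among the controls themselves, from 189.7 to 954 and 20.8 to 103 CPM, and overlapped between groups. They fell by 1.5 and 1.04, and neither passed with the covariate. In stroked WT mice of cohort Imm2 the list median over the controls was -0.99, and in delayed mice against TF stroked WT mice it was 0.24.

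Of 21 genes of axon regeneration and neuronal injury 7 rose and 9 fell (median 0.02), against 3 and 1 with the covariate. Without the covariate 27.6% of all genes tested rose and 27.6% fell. Atf3, a stress-induced transcription factor, rose from between 0.245 and 0.907 CPM to between 6.68 and 14 CPM and the tubulin gene Tubb6 by 3.39, and both passed with the covariate (adjusted p = 0.0438 and 0.00937). Gap43, the growth cone protein, did not pass (log2 0.34, adjusted p = 0.0715), and Basp1 fell by 1.2.

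Cholesterol synthesis genes fell with and without the cohort term. Of 22 genes 18 fell and none rose (median -0.51), and 13 fell with the covariate (median -0.45). Hmgcs1, the synthase that starts the pathway, was at 279.5, 253, 263 and 280.4 CPM in controls and 177, 150.1, 135, 158 and 140.1 CPM in delayed mice, a level that dropped by 43.5% without overlap (adjusted p = 1.14e-06, cohort-adjusted p = 0.00507). Sqle, squalene epoxidase, fell by 0.78 in the main comparison and 0.78 with the covariate. The difference between cohorts of stroked WT mice was small for this list (median -0.05). Myelin genes, whose cells use much cholesterol, had a median of 0.05, with 6 rising and 4 falling of 18 (cohort-adjusted 1 and 0). These shares were near those of all genes tested, 27.6% rising and 27.6% falling.

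Beyond the Y-linked genes, the 12 lowest genes by fold change were mostly of low level. Wnt2b, a secreted Wnt ligand, stood at 2.71, 2.5, 2.65 and 2.12 CPM in controls and 0.523, 0.756, 0.869, 0.815 and 0.546 CPM in delayed mice (log2 -1.82, cohort-adjusted -1.76, adjusted p = 0.0066). Gipc3 fell by 2.06 and passed with the covariate as well (adjusted p = 0.0365). Chrnb3, Hfe2, Olfr464, Klhdc7b and Spata32 fell by 2.25, 2.19, 2.13, 2.0 and 1.92, and none of these passed with the covariate. The nonagouti gene, written a, was also among the 12.

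Direct comparison with stroked WT mice, 2 from each cohort, sets stroke with the drug beside stroke without it. Cohort and sex differ in part here too, because all 5 delayed mice were of TF. No gene of 17031 passed (0.0%) between the 5 delayed and 4 stroked WT mice in edgeR, although 3455 had an unadjusted p below 0.05, and the smallest adjusted p was 0.15. DESeq2 called 47 genes. In edgeR the count was 0 with cohort as a covariate too. The count rested on the 2 TF mice of the stroked WT group, since without mouse 5_3 or 5_2 it was 1049 or 476 genes, which leaves 3 mice of which 2 are from the other cohort. Against those 2 TF mice alone no gene passed either, and 250 had an unadjusted p below 0.05, fewer than the 852 that a 5% rate gives. Igkc, named here after its values were seen, was at 8.45, 5.2, 3.31, 4.57 and 27.2 CPM in delayed and 0.959, 4.39, 1.04 and 1.25 CPM in stroked WT mice (log2 3.07 against the TF mice, adjusted p = 1.0). With 2 mice on 1 side a miss does not show that the groups were alike.

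Against WT-Tacr acute mice, which had the drug from day 0, 1769 genes were higher (10.4%) and 1696 lower (9.96%) in delayed mice. The 3 acute mice did not resemble each other. On the scale of log2(CPM + 0.5), the median of the disease-associated microglia list above the non-stroked mean was 0.14 in mouse 1_5, 2.13 in mouse 2_1 and 0.74 in mouse 5m_1, against 2.08 to 3.03 in the 5 delayed mice. Mouse 1_5, labelled as stroked, was thus near the non-stroked mice in its phagocyte, scar and astrocyte lists. The count was 0 without mouse 1_5, 0 without mouse 5m_1, 5603 without mouse 2_1 and 0 within the TF cohort. Leaving out delayed mouse 5_5 gave 1486 genes.

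The 5 higher genes with the smallest p were Cd151, Hfe, Gypc, Mamdc2 and Rab3il1. The tetraspanin gene Cd151 was at 34.5, 40.4, 40.2, 38.5 and 45.3 CPM in delayed and 18.4, 20.8 and 30.7 CPM in acute mice (log2 0.77, adjusted p = 0.0102). Hfe, the iron regulator, was higher by 1.29 and Mamdc2 by 2.15. Among the lower genes were Elovl4, which makes very long fatty acids (-0.44), Brinp2 (-0.52) and the clustered protocadherin genes Pcdha11, under 2 identifiers, and Pcdha5. The protocadherin genes share their last exons and had nearly equal counts, so that each value is uncertain. In lists, 20 of 22 disease-associated microglia genes and 18 of 25 scar genes were higher than in acute mice, and 14 of 18 pan-neuronal genes were lower. Without mouse 1_5 or mouse 5m_1 no gene of these lists passed.

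**Figure D5:**
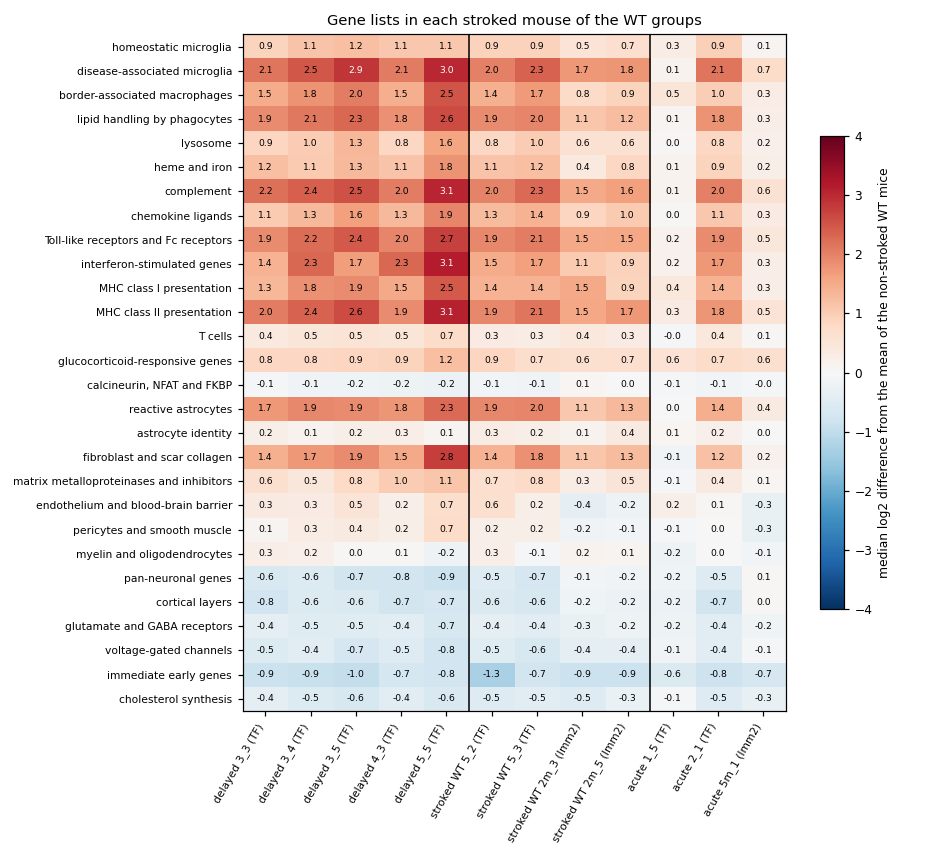
Median difference of each gene list from the mean of the 4 non-stroked WT mice, on the scale of log2(CPM + 0.5), in each stroked mouse of the WT groups; red is higher, blue is lower, and columns give group, mouse and cohort. Delayed mouse 5_5 is highest of its group in most immune and scar lists, and acute mouse 1_5 is near 0 in most.

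The 5 delayed mice differed among themselves. Scar collagen medians were 1.41, 1.74, 1.88, 1.51 and 2.75 in mice 3_3, 3_4, 3_5, 4_3 and 5_5, on the scale used for mice above, and class II medians were 2.04, 2.35, 2.6, 1.9 and 3.09 in the same order. Mouse 5_5 had the highest value in both, and also the lowest median for pan-neuronal genes (-0.60, -0.55, -0.74, -0.75 and -0.86 in that order). Reactive astrocyte medians were closer together, at 1.72, 1.92, 1.9, 1.77 and 2.27. The stroked WT mice of the same cohort, 5_2 and 5_3, had scar medians of 1.39 and 1.82. Without mouse 5_5 the main comparison still gave 4258 rising and 4196 falling genes.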

How the data were processed

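Poly(A)-selected, stranded RNA-seq libraries of brain tissue were deposited by the authors as raw counts per Ensembl gene, 1 file per mouse (25746 genes). Aligner, counter, build and use of strand are not given in the sources used here. Symbols and types came from GENCODE M21 on GRCm38, which held 25712 of the IDs. Groups came from the labels, and the title prefix (Imm2 or TF) was taken as the cohort. All 29 samples in 8 groups entered 1 edgeR 4.0.16 quasi-likelihood fit (TMM, filterByExpr by group, 17031 genes), with Benjamini-Hochberg adjustment over all genes, in R 4.3.3. An adjusted p below 0.05 was the threshold. SE is the log2 fold change divided by the square root of F. CPM used TMM-scaled library sizes. Intervals and the floor of 3 counts cover counting error only. The labels number the samples and do not state that each is a separate animal, so p-values measure the spread between samples. "Mouse" stands for 1 sample. No 2 libraries of a group agreed within sampling noise. The fit was tested on simulated counts that held no cohort, sex or tissue difference, so that test does not bear on these.

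Named genes were those of the highest and lowest fold change without overlap (12 each, mean of at least 1 CPM), genes of stained proteins, drug targets, in each list up to 4 members of smallest p and up to 4 that define its role, and, for the comparison with acute mice, the 5 of smallest p in each direction. Some genes that this rule names are not reported here. Members and lists were chosen with earlier results of these data known. Alternatives were RLE scaling, DESeq2 1.42.0, other low-count filters, cohort or Ddx3y as a covariate, fewer groups, thinning to the smallest library, the TF cohort alone and each mouse left out.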

Additional observations from a re-analysis of the deposited data

Results flagged for a closer look

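Single mice stood apart from the rest of their group, by the gap to the nearest value, for 23 of the 318 sets of 1 gene in 1 group looked at, where chance, at about 1 in 20, would give 16. In delayed mice 12 of the 14 came from mouse 5_5. It was the highest for Mmp12 (119 CPM), Pecam1 (27.2 CPM), Cd14 (12.8 CPM), Cxcl10 (7.89 CPM), Isg15 (12.8 CPM), Igkc (27.2 CPM), Jchain (3.57 CPM), Postn (21.1 CPM), Col3a1 (323 CPM) and Fn1 (374 CPM). It was the lowest for Slc1a2 (2705 CPM) and Bdnf (14.4 CPM). The other delayed mice set apart were 4_3, highest for Vegfa (63.2 CPM), and 3_4, lowest for Ttr (5.39 CPM).

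In non-stroked mice, mouse 3 was the highest for Nefh (121 CPM), Irf7 (2.10 CPM), Ciita (0.190 CPM), Pax5 (3.59 CPM) and Postn (3.16 CPM). Mouse 4 was the highest for Ctsd (344 CPM), mouse 5 for Zbtb16 (118 CPM) and mouse 1 for Brinp2 (120 CPM), and mouse 4 was the lowest for Tac1 (7.53 CPM).

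Delayed and acute tacrolimus mice after stroke differed at 3465 genes in edgeR, a count that became 0 without acute mouse 1_5 or 5m_1. The cause was not tested.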

How the results depend on the processing

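With cohort as a covariate 972 genes rose, 561 fell, 698 more than doubled and 24 more than halved, and with Ddx3y as a covariate these counts were 2083, 2031, 1111 and 149. Genes more than halved numbered 300 at a mean of at least 1 CPM, 452 with the 4 groups of WT mice and 412 with only the groups compared. Leaving out each mouse in turn gave 4158 to 4560 rising, 4144 to 4496 falling, 1764 to 2016 doubled and 590 to 703 halved genes. Against stroked WT mice DESeq2 called 47 genes, and leaving out each mouse gave 0 to 1049. Against acute mice the count was 2269 with the Ddx3y covariate, 1583 with the cohort covariate, 0 within the TF cohort, 0 with only the groups compared, and 0 to 5603 when each mouse was left out. Of the 169 named genes, 149 passed, and 142 of these kept their call without each mouse in turn. Calls were lost with the sign kept at 50 genes with the cohort covariate and at 21 with the Ddx3y covariate. The genes whose sign turned, named next, did not pass in those fits either. Signs turned for Fkbp1a with the cohort covariate (0.0099), for Eif2s3y (0.51) and Uty (0.39) with the Ddx3y covariate, and for Pax5 without non-stroked mouse 3 (range -2.52 to 0.10 over the mice left out). The causes were not tested. No paired analysis was possible because the groups share no replicate numbers in the labels. Delayed libraries held fewer counts than the controls, and thinning all libraries to the smallest gave 4106 rising and 4629 falling genes. T cell, B cell and neutrophil genes rest on few reads.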
